A study of Pyronema omphalodes CBS 100304 with 6 samples.

Results

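The 300 most abundant transcripts of dark-grown *P. confluens* mycelium were described against the genes for which no read was counted. The table held 13369 gene models, of which 4 were left out (PCON_08583, PCON_04242, PCON_04832 and PCON_04241). The counts of the other 13365 were divided by the length of the mRNA, and each library was scaled to a sum of 1000000, which gives transcripts per 1000000 (TPM). The 300 genes were selected on their mean TPM over the 6 libraries, so their levels are given as a description. Counts were 0 in every library for 2907 models, and 10458 models had at least 1 count.

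*Pyronema confluens* is a filamentous ascomycete of the Pezizomycetes that forms its fruiting bodies in the light, and the sequenced strain was CBS 100304, which the labels list as *Pyronema omphalodes*. Wild-type mycelium was shaken in liquid culture at 25 °C, kept in constant light for at least 24 hr and moved to constant darkness for 24 hr (DD24) or 36 hr (DD36), with the shifts staggered so that all cultures had about the same age at harvest under red light. By the study's methods the cultures had stopped growing by then. Each time point had 3 independent biological replicates (a, b and c), and the 6 libraries were pooled for description without a comparison of the time points.

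After removal of the 4 models, the libraries held between 384577 and 699410 counts, and between 8306 and 8941 models had at least 1 count. These sums are a small part of the mapped reads listed in the study, and the labels and methods do not say how the counted part was taken. The 4 models took between 35.2% and 56.4% of the counts of a library. PCON_08583, similar to an RNA-dependent RNA polymerase, held 37.03% ± 8.08 of them (SD, n = 6), and the other 3 carry names of bacteriophage structural proteins. DD24 replicate a, in which the removed share was highest, was the library with the fewest remaining counts. Every member of the 300 was counted at least 42 times in every library.

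A fungal hypha grows at its tip, where vesicles deliver membrane and wall material, and the compartments behind the tip supply protein, energy and precursors. Proton pumping by the plasma membrane ATPase drives nutrient uptake, chitin and beta-1,3-glucan form the wall, and in filamentous ascomycetes Woronin bodies plug the septal pores of damaged hyphae. In bulk RNA, fewer cells with a transcript and less of it per cell cannot be told apart.

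Some of the genes named for structures of hyphae were abundant, and most stood outside the 300. Which of them are particular to hyphae was not tested. Of 33 models with product names of hyphal structures (Woronin body, plasma membrane ATPase, chitin and glucan synthases, tubulins, actin and septins), 5 (15.2%) were among the 300, beside 2.24% of all models, and 1 had 0 counts, and their summed level was between 15487 and 18837 TPM. The Woronin body major protein PCON_09125 had 4515, 3875, 3050, 3500, 3822 and 3824 TPM, the 3 DD24 libraries first and each time point in the order of its replicate letters, as throughout. It held rank 17, and its lowest library was DD24 replicate c. Chitin synthases stood lower, from chitin synthase G PCON_06635 at 325 ± 35.2 TPM (SD, n = 6) down to chitin synthase C PCON_06619 at 22.3 ± 8.99 TPM. Of 56 models named for mating, pheromones, meiosis, sporulation or fruiting bodies, 1 (1.79%) was among the 300 and 1 had 0 counts, beside 2.24% and 21.8% of all models, so nearly all of them were detected. Their summed level was between 3234 and 3826 TPM and their median level 23.7 TPM, against 106 TPM for the hyphal list. Genes named for meiosis ranged widely. SPO11 (PCON_04896), the enzyme that makes meiotic double-strand breaks, and the recombinase DLH1 (PCON_03294) had 3 counts each in all libraries together. A model named for the transcription factor NDT80 (PCON_08807) was at 84.9 ± 12.5 TPM. Models named for a chromosome segregation protein (PCON_12428) and rec14 (PCON_06566) were at 82.5 ± 21.3 TPM and 37.8 ± 5.42 TPM. Whether these act in meiosis in this fungus was not tested. The highest gene of this list was PCON_02638, given below. Of the models named for hyphal structures 5 were thus among the 300, while the others stood lower. Low levels of most genes of the other list were present too. That list was matched by words, among them names for meiotic up-regulation and for stage V sporulation proteins. Its levels are therefore no measure of sexual development.

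The 300 genes held 45.8% ± 1.12 of the summed level (SD, n = 6), although they were 2.24% of the models. The 10 highest held 7.59% ± 0.745, the 30 highest 14.8% ± 0.935 and the 100 highest 27.1% ± 1.42. Mean levels ran from 8990 TPM down to 666 TPM with a median of 1069 TPM, and 173 members were at 1000 TPM or above, 45 at 2000 TPM or above and 10 at 5000 TPM or above. The curve of level against rank had no step at the limit of the selection. Just inside it were an L-asparaginase (PCON_06618, 676 TPM), the ribosome-associated protein STM1 (PCON_04500, 674 TPM), a protein of unknown function (PCON_03334, 674 TPM), ribosomal protein S12 (PCON_04536, 667 TPM) and a protein similar to the allergen Asp f 7 (PCON_04628, 666 TPM). Just outside were the glycogen branching enzyme (PCON_01282, 664 TPM), a hypothetical protein (PCON_13633, 659 TPM), a complex I subunit (PCON_08332, 651 TPM), a PRY2-like protein (PCON_06055, 649.9 TPM) and a glycine-rich RNA-binding protein (PCON_09161, 649 TPM). The standard deviations of these 10 genes over the libraries, from 50.6 to 169 TPM, exceed the steps between them.

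**Figure D1:**
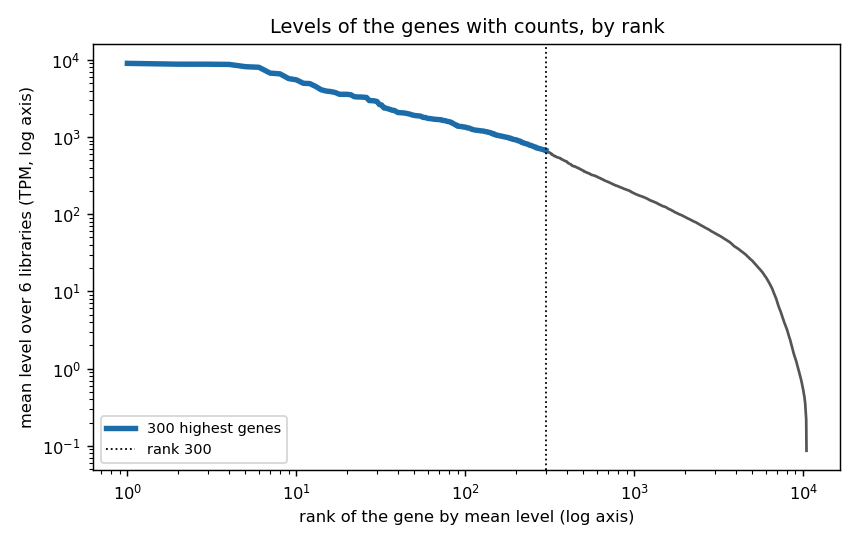
Mean level over the 6 libraries (TPM, log axis) of each gene with counts against its rank (log axis), with the 300 highest genes in blue and a dotted line at rank 300. The curve falls from 8990 TPM at rank 1 to 666 TPM at rank 300 and has no break there.

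When the 300 highest genes of 5 libraries were looked up in the library left out, between 264 and 283 of them were again among that library's own 300, or 88.0% to 94.3% of each list. The lowest share was in DD24 replicate b and the highest in DD36 replicate b. The lists of the DD24 libraries and of the DD36 libraries had 275 genes in common (91.7% of each), and 226 of the 300 were among the 300 highest of every library by itself. Within the 300, log2 levels of 2 libraries correlated across genes with r between 0.772 and 0.938 (n = 300 genes of the same libraries, which are not independent replicates). The pair with the highest r was DD24 replicate c with DD36 replicate c.

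The machinery of protein synthesis was the largest named class among the 300. Translation elongation factor 1-alpha, which carries aminoacyl-tRNA to the ribosome, was the highest gene, and a further model of the same product was at rank 6. PCON_04930 had 9996, 7493, 8370, 8929, 9321 and 9830 TPM (mean 8990 ± 944, SD, n = 6). PCON_11298 had 8695, 6915, 7361, 7732, 8442 and 8837 TPM (mean 7997 ± 779). Both were lowest in DD24 replicate b, and the order of their libraries was almost the same. PCON_11298 starts at base 1 of its scaffold (scaffold 588, 1 to 1219) and PCON_04930 lies on scaffold 182 (33018 to 34761, minus strand), and how reads that match both were divided is not given, so their separate levels are uncertain.

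The other elongation factors followed at lower levels. Elongation factor 1-gamma (PCON_11700) had a mean of 1719 ± 153 TPM, elongation factor 2 (PCON_09519), which moves the ribosome along the message, 1695 ± 217 TPM, and elongation factor 1-beta (PCON_02221), the nucleotide exchange factor of 1-alpha, 1633 ± 254 TPM. The fungal elongation factor 3 (PCON_12723) was at 949 ± 83.0 TPM. In all, 9 of 130 models of translation factors and tRNA synthetases were members.

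Of 87 models named for cytosolic ribosomal proteins, 66 (75.9%) were among the 300 and none had 0 counts, against 2.24% and 21.8% of all models kept. Together the 66 made up 22.0% of the list. This count rests on the division by mRNA length: by counts alone, 18 ribosomal proteins were among the 300 highest, fewer than the 20 of respiration and the tricarboxylic acid cycle. Their means lay in a narrow band from 667 to 1645 TPM with a median of 931 TPM. The highest were ribosomal protein S1 (PCON_11999) with 1762, 1249, 1443, 2062, 1626 and 1730 TPM, L3 (PCON_13643) with 1922, 1184, 1328, 1671, 1398 and 1590 TPM, and S23 (PCON_13767) with 1173, 1137, 1345, 1595, 1431 and 1553 TPM. Each was lowest in DD24 replicate b. The small subunit had 28 of 38 models among the 300 and the large subunit 38 of 49, with medians over all models of 800 and 845 TPM. The summed level of the whole class was 7.10% ± 0.961 of the libraries, between 5.48% in DD24 replicate b and 8.15% in DD36 replicate a.

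The 21 ribosomal protein models outside the list were mostly close to it, since 79 of the 87 had a rank of 600 or better. The exceptions were apparent extra copies at a low level, such as PCON_12039 (S27) at 7.03 TPM, PCON_08290 (L11-B) at 9.36 TPM and PCON_12175 (S22) at 39.2 TPM, together with the export adaptor NMD3 (PCON_05677, 31.9 TPM), which the words of the class also match. Reads shared between copies could have been divided by the counting, so these low values are uncertain. None of 63 mitochondrial ribosomal protein models and none of 80 models for the assembly of ribosomes was among the 300, where 2.24% of all models would also give few. The highest mitochondrial one, YMR-31 (PCON_03818), was at 541 ± 73.1 TPM and rank 355. Of the assembly factors, the highest was an rRNA methyltransferase-like model (PCON_07726) at 216 ± 35.04 TPM and rank 856, and their median was 24.4 TPM, against 831 TPM for the 87 ribosomal protein models.

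**Figure D2:**
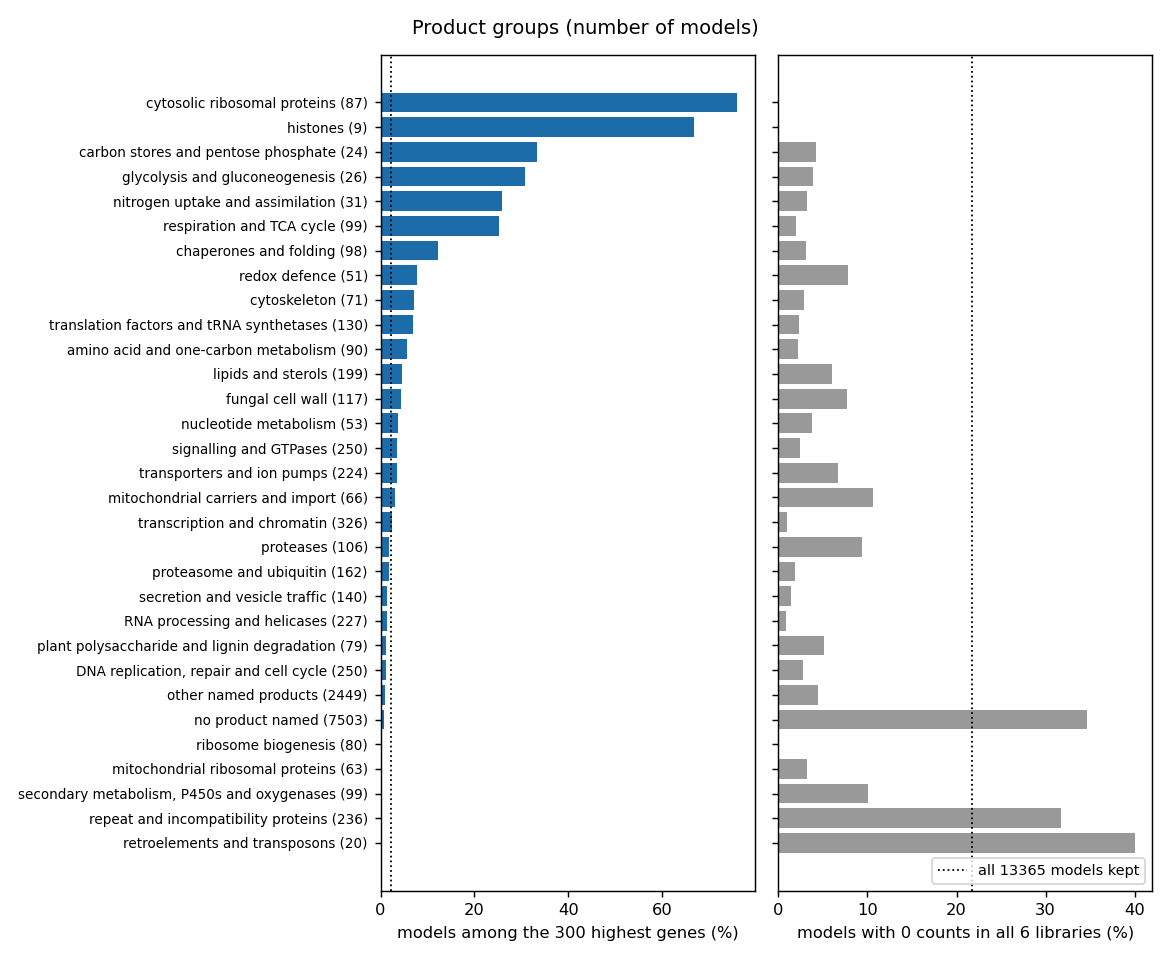
Percent of the models of each product group among the 300 highest genes (left, blue) and with 0 counts in all 6 libraries (right, grey), with the number of models in brackets and dotted lines at the 2.24% and 21.8% of all models. Ribosomal proteins (75.9%, 66 models, of which 18 without division by mRNA length) and histones (66.7%) lead on the left, and on the right retroelements (8 of 20), models without a named product (34.7%) and repeat and incompatibility proteins (31.8%) pass the line.

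Genes of mitochondrial energy supply came next, with 25 of 99 models of respiration and the tricarboxylic acid cycle among the 300 and 2 at 0 counts. Their summed level was steady over the libraries at 4.75% ± 0.157. The ADP,ATP carrier (PCON_09239), which exchanges ATP for ADP across the inner mitochondrial membrane and was assigned to the carriers, had 6130, 6315, 6245, 6706, 7142 and 6887 TPM and rank 8. Its highest library was 1.16 times its lowest, a narrow spread beside the median of 1.57 times over the 300. Porin (PCON_09900), the channel of the outer membrane, was at 1940 ± 188 TPM.

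The ATP synthase gave 6 members, led by the catalytic beta subunit (PCON_01281) with 3214, 2653, 2758, 2966, 3188 and 2939 TPM and the alpha subunit (PCON_08199) with 1982, 1952, 1879, 1883, 2281 and 2331 TPM. PCON_08199 overlaps another model, and without strand in the counting the reads of both cannot be told apart. Cytochrome c oxidase gave 5 members, of which subunit 6A (PCON_13179) was highest at 1763 ± 211 TPM, and cytochrome c itself (PCON_12322) was at 1470 ± 368 TPM. Of the cycle, citrate synthase (PCON_01260, 1199 ± 135 TPM), aconitase (PCON_14272, 891 ± 110 TPM), both NAD isocitrate dehydrogenase subunits (PCON_06086, 827 ± 82.6 TPM, and PCON_09556, 743 ± 70.3 TPM) and mitochondrial malate dehydrogenase (PCON_12748, 1106 ± 141 TPM) were members.

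The highest respiratory gene was alternative oxidase (PCON_03749), which passes electrons from ubiquinol to oxygen without pumping protons. It had 3573, 4971, 4182, 1549, 2604 and 2745 TPM (mean 3271 ± 1225, n = 6) at rank 25. Its libraries were far apart, with DD36 replicate a lowest. A further alternative oxidase model (PCON_11655) was at rank 251 with 762 ± 113 TPM. The neighbour of PCON_03749, PCON_03748, similar to an uncharacterized serine-rich protein, was the gene at rank 5 with 6196, 11112, 9533, 4575, 8881 and 8553 TPM. It too was highest in DD24 replicate b and lowest in DD36 replicate a. The 2 genes lie head to head on scaffold 1496 (85355 to 86587 and 88541 to 89951), with 1953 bases between them.

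Of 26 models that matched words for glycolysis and gluconeogenesis, 8 were among the 300 and 1 had 0 counts. The words also matched other enzymes, such as enolase-phosphatase and ketohexokinase. Glyceraldehyde-3-phosphate dehydrogenase (PCON_12745) was at rank 9 with 7119, 5822, 5034, 4870, 5750 and 5652 TPM. DD24 replicate a stood above the other libraries, and the model overlaps another model. Enolase (PCON_11324) had 3422, 3000, 2597, 3111, 3000 and 2640 TPM, and aldolase (PCON_13364) 1890, 1742, 1541, 2014, 2124 and 1926 TPM. For both of them replicate c was the lowest of its time point. The steps that commit and end the pathway were below the list, with hexokinase (PCON_10094) at 537 ± 81.1 TPM, phosphofructokinase (PCON_06425) at 445 ± 61.3 TPM and pyruvate kinase (PCON_04428) at 458 ± 90.4 TPM. Phosphoenolpyruvate carboxykinase (PCON_07559), the entry to gluconeogenesis, was a member at 996 ± 299.97 TPM. Pyruvate decarboxylase (PCON_03112), the first step of ethanol formation, was at 110 ± 59.1 TPM and rank 1700.

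Genes for carbon stores and the pentose phosphate pathway gave 8 members of 24 models. UDP-glucose pyrophosphorylase (PCON_10830), which makes the sugar nucleotide for glycogen and wall glucan, had 1643, 1657, 1508, 1658, 1763 and 1507 TPM. Glycogenin (PCON_04451), the primer of glycogen, had 1246, 1656, 1149, 1450, 1824 and 1259 TPM, and 6-phosphogluconate dehydrogenase (PCON_11964), which yields NADPH, 1568, 1134, 1301, 1307, 1415 and 1300 TPM. Phosphoglucomutase (PCON_02857), glycogen phosphorylase (PCON_04880), transaldolase (PCON_05208) and transketolase (PCON_07305) were members too, between 712 and 978 TPM. Mannitol-1-phosphate 5-dehydrogenase (PCON_01669), the only one of the genes named in the study that was a member, had 1505, 1825, 908, 864, 915 and 665 TPM at rank 143. The *frq* gene (PCON_09365) was at 51.7 ± 12.9 TPM and rank 3236, and none of the 12 gene models named in the study had 0 counts in every library. These include PCON_09934, which the study prints in its light experiments for a clock-controlled gene that it lists elsewhere as PCON_09334.

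Words for nitrogen uptake and assimilation matched 31 models, among them folylpolyglutamate synthases, and gave 8 members. The nitrate pathway was complete among these members. The nitrate transporter PCON_11812 had 2453, 2738, 2173, 1987, 2477 and 2035 TPM. Nitrate reductase PCON_11813, which makes nitrite, had 1710, 1934, 1811, 1916, 1745 and 1674 TPM, and nitrite reductase PCON_11814, which makes ammonium, 1984, 2396, 2076, 1928, 2077 and 1775 TPM. All 3 were highest in DD24 replicate b, and their highest library was 1.38, 1.16 and 1.35 times the lowest. They are neighbours on scaffold 639, with the transporter on the minus strand (19983 to 21911) and both reductases on the plus strand (23489 to 26561 and 28102 to 32207).

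The enzymes that fix ammonium stood at the same height. Glutamine synthetase PCON_06630 had 2180, 2180, 1634, 2463, 2093 and 1788 TPM and NADP-specific glutamate dehydrogenase PCON_03821 had 2191, 1692, 1855, 1722, 1779 and 2118 TPM, whereas glutamate synthase PCON_13408 was at 351 ± 18.8 TPM. An ammonium transporter (PCON_08711, similar to MEP3) was at 1422 ± 190 TPM, a urea transporter (PCON_09531) at 1063 ± 128 TPM and uricase (PCON_09106), which opens the purine ring for use as nitrogen, at 1159 ± 317 TPM. The regulator similar to areA (PCON_01759), a GATA factor for nitrogen use in *Aspergillus*, was at 291 ± 24.8 TPM, and nmrA (PCON_13416), its co-repressor there, at 139 ± 18.4 TPM.

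All core histones were members. Histone H3 (PCON_13209) had 3365, 4265, 4156, 3663, 4524 and 4600 TPM, H2B (PCON_05922) 3233, 3090, 3474, 3020, 3315 and 3390 TPM, and H4.1 (PCON_13210) 3332, 2331, 2756, 2358, 2320 and 2456 TPM. H2B varied little, and H3 and H4.1 did not follow each other over the libraries: H4.1 was highest in DD24 replicate a, where H3 was lowest. H2A (PCON_05921) was at 1736 ± 166 TPM, a further H4.1 model (PCON_05222) at 1595 ± 325 TPM and the linker histone H1 (PCON_05919) at 915 ± 102 TPM. The 3 other histone models, the variant H2A.Z (PCON_13456, 89.2 ± 15.8 TPM), H4.2 (PCON_07103, 53.2 ± 12.6 TPM) and the centromeric H3 (PCON_10853, 26.0 ± 3.11 TPM), were far below. H3 and H4.1 lie head to head on scaffold 808 (292429 to 293386 and 294359 to 295049), and H2A and H2B on scaffold 225 (223950 to 225212 and 226019 to 226830).

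**Figure D3:**
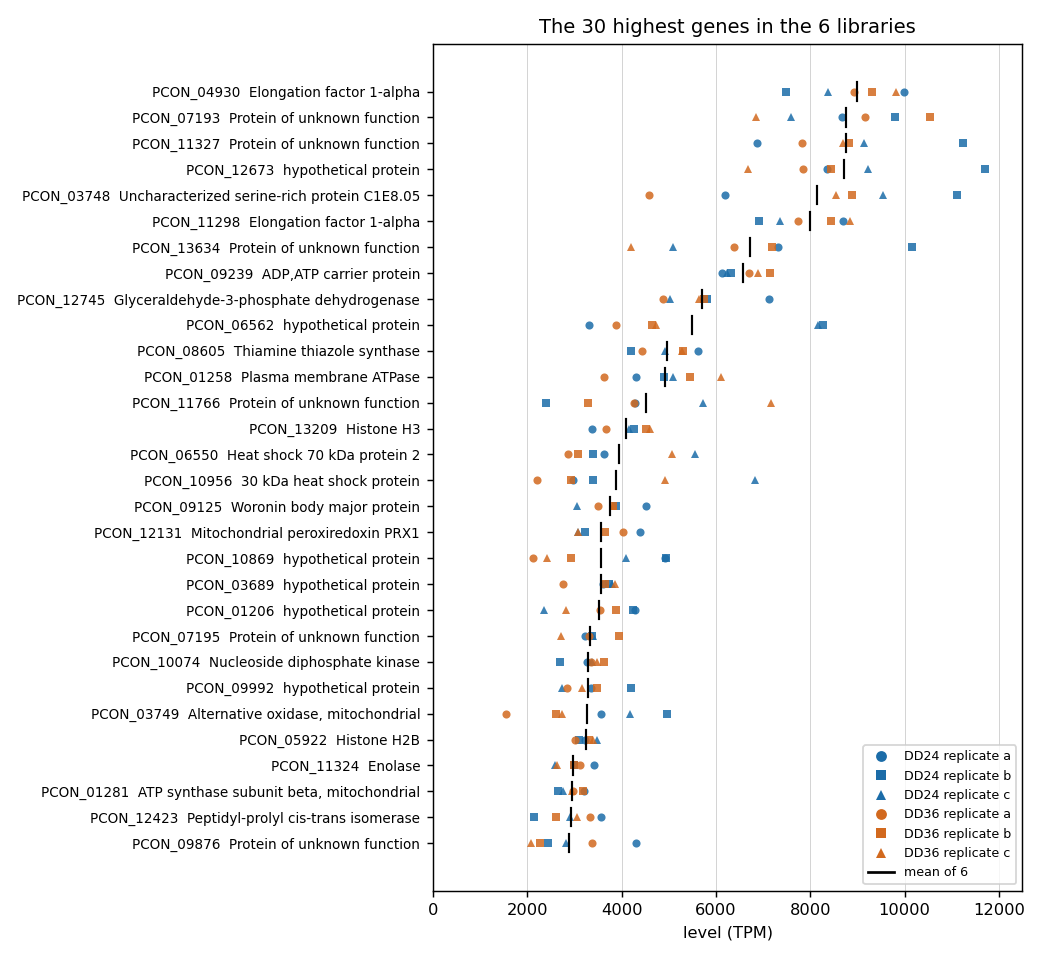
Level in each library (TPM) of the 30 highest genes, with DD24 in blue, DD36 in orange, circles for replicate a, squares for b, triangles for c and a black bar at the mean of the 6 libraries. Elongation factor 1-alpha leads with 7493 to 9996 TPM, and genes without a named product, such as PCON_03748 with 4575 to 11112 TPM, show wider spreads than the ADP,ATP carrier with 6130 to 7142 TPM.

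Chaperones gave 12 members of 98 models (12.2%, beside 2.24% of all models). Their coefficients of variation over the libraries ran from 8.45% to 79.0%, and some unnamed members, such as PCON_10965 (69.6%), also varied widely. The ATP-dependent disaggregase hsp98 (PCON_01316) had 1191, 1081 and 3886 TPM in the DD24 libraries and 1231, 1056 and 3093 TPM in the DD36 libraries. The mean of both replicate c libraries was 3490 TPM, 3.06 times that of the others at 1140 TPM. A small heat shock protein of the 30 kDa class (PCON_10958) had 660, 1019, 3936, 935, 850 and 2637 TPM, the widest relative spread of all 300 members with a coefficient of variation of 79.0%. The other 3 members of that class, PCON_10956 (2967, 3385, 6824, 2206, 2921 and 4932 TPM), PCON_02808 (1278, 1040, 2802, 1191, 1060 and 2053 TPM) and PCON_02801 (1035, 799, 2101, 856, 805 and 1415 TPM), showed the same order of libraries at the top, with replicate c of DD24 first and replicate c of DD36 next.

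The remaining chaperone members were less uneven than those above. HSP70 2 (PCON_06550), a general folding factor, had 3624, 3405, 5567, 2867, 3084 and 5072 TPM, and HSP90 (PCON_11855), which acts on signalling proteins, 1851, 1074, 2104, 1335, 1192 and 1917 TPM. In both genes the replicate c libraries were again above the other 4. A further HSP70 (PCON_09348, 1868 ± 158 TPM), the ribosome-bound SSB (PCON_03893, 1224 ± 155 TPM), the peptidyl-prolyl isomerase PCON_12423 (2933 ± 511 TPM), the endoplasmic reticulum chaperone GRP78 (PCON_03879, 893 ± 193 TPM) and the mitochondrial HSP60 (PCON_13458, 711 ± 163 TPM) did not show this pattern.

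Both replicate c libraries were above the other 4 for 7 of the 12 chaperone members and for 38 of the 300 (12.7%). Over the 7207 models with counts in every library the same held for 8.26%. Both were below the other 4 for 34 of the 300 (11.3%), beside 9.2% of the 7207 models. The replicate b libraries were below the rest for 35 of the 300 (11.7%), among them 7 of the 12 chaperones, beside 7.59% of all such models, and above it for 19 (6.33%), beside 5.81%. The replicate a libraries were below the rest for 35 (11.7%), beside 7.08%, and above it for 27 (9%), beside 9.64%. The shares of the 300 were thus above those of all models, except for high replicate a libraries. These differences were not tested, and the chaperones were few. Of the 34 with low replicate c libraries, 16 had no named product. These were 25.8% of the 62 unnamed members, beside 9.2% of the 7207 models. The lowest ratio was that of the unnamed PCON_12250, with a mean of 975 TPM in the replicate c libraries and 2710 TPM in the others. The named ones included enolase, triosephosphate isomerase (PCON_02856), phosphoglycerate kinase (PCON_10035) and both fatty acid synthase subunits. Glycogen phosphorylase (PCON_04880) was another, with a mean of 484 TPM in the replicate c libraries and 833 TPM in the others. Among the 38 with high replicate c libraries were, beside the chaperones, PCON_10965 of unknown function (487, 794, 2594, 679, 825 and 2001 TPM), which lies on scaffold 566 as do PCON_10956 and PCON_10958, an L-xylulose reductase (PCON_02039, 487, 471, 1099, 838, 613 and 1414 TPM) and a ubiquitin and WLM domain protein (PCON_06057, 648, 703, 1536, 646, 452 and 833 TPM). Deviations of the 300 from the mean of their time point correlated between libraries with the same letter with r = 0.572 for a, 0.784 for b and 0.753 for c (n = 300 genes). The labels do not say what a letter stands for beyond the replicate, and its part in these levels was not tested.

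**Figure D4:**
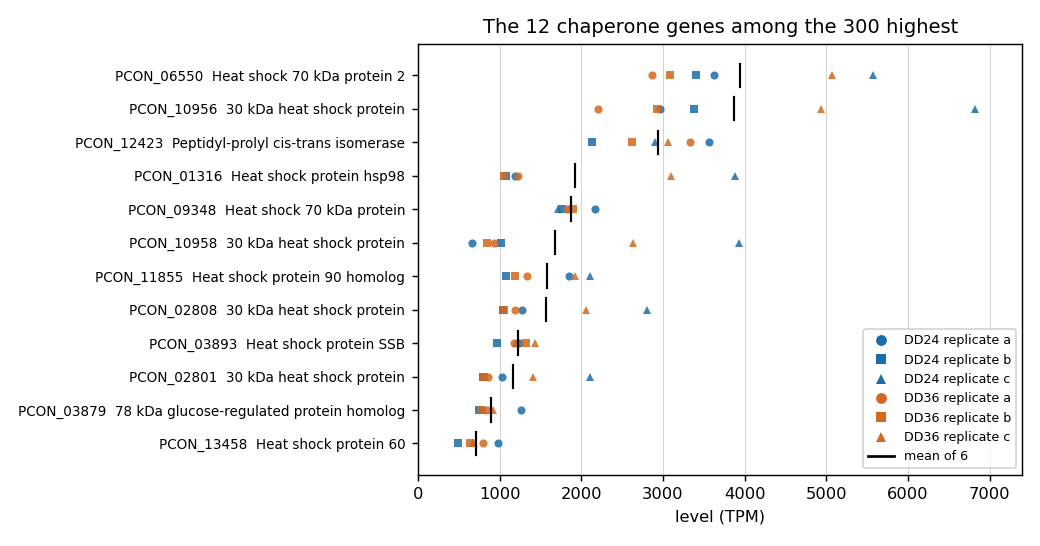
Level in each library (TPM) of the 12 chaperone members, with DD24 in blue, DD36 in orange, circles for replicate a, squares for b, triangles for c and a black bar at the mean of the 6 libraries. The triangles of hsp98 sit at 3093 and 3886 TPM, away from the other libraries between 1056 and 1231 TPM, while HSP60 and the further HSP70 show no such gap.

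At the other end were members with almost the same level in all libraries. The gene with the smallest coefficient of variation of the 300 (2.68%) was subunit 2 of ATP-citrate synthase (PCON_03028), with 1733, 1673, 1728, 1656, 1689 and 1614 TPM. This enzyme makes the cytosolic acetyl-CoA for fatty acids and sterols. Subunit 1 (PCON_03027) had 2289, 2300.4, 2167, 2191, 2312 and 2005 TPM and lies head to head with it on scaffold 1351 (21749 to 24378 and 25823 to 28017). Also steady were the G1 cyclin CCN1 (PCON_10749, 708 ± 24.2 TPM), the high mobility group protein NHP6 (PCON_12221, 974 ± 38.9 TPM), a 14-3-3 protein (PCON_03299, 1181 ± 55.9 TPM) and glucose-6-phosphate isomerase (PCON_05415, 748 ± 37.3 TPM). The median coefficient of variation was 16.1% over the 300, and by group it was 10.2% for the 9 signalling members, 17.0% for the ribosomal proteins, 25.3% for the 62 members without a named product and 27.8% for the chaperones.

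Words for lipids and sterols gave 9 members of 199 models (4.52%, beside 2.24% of all models). Beside ATP-citrate synthase these included the alpha and beta subunits of fatty acid synthase (PCON_07917, 846 ± 148 TPM, and PCON_07918, 677 ± 136 TPM) and the delta-9 type acyl-CoA desaturase (PCON_03679, 1215 ± 100.4 TPM). A C-5 sterol desaturase of ergosterol synthesis (PCON_01687) had 1645, 2417, 1736, 953, 1310 and 1077 TPM and varied more than these. The ceramide fatty acid hydroxylase SCS7 (PCON_01991), at 780 ± 288 TPM, had the largest coefficient of variation of the 9 (36.9%). The transcription factor similar to sterol regulatory element-binding protein 1 (PCON_10632) was at rank 45 with 2201, 2568, 2003, 1746, 1900 and 1684 TPM. It was the highest of the 8 members of transcription and chromatin, which were 2.45% of 326 models, near the 2.24% of all models.

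The other transcription factors of the list included HOY1 (PCON_09578, 1900 ± 581 TPM), known for hyphal growth in *Yarrowia*, the cross-pathway control protein (PCON_02626, 1789 ± 256 TPM), which activates amino acid synthesis genes, the carbon catabolite repressor creA (PCON_04185, 1132 ± 290 TPM) and hacA (PCON_13591, 810 ± 121 TPM), the activator of the unfolded protein response. The zinc finger protein YER130C (PCON_11768) was at 714 ± 77.2 TPM.

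Of 224 transporters and ion pumps 8 were members (3.57%, beside 2.24% of all models). Plasma membrane ATPase (PCON_01258) had 4315, 4909, 5090, 3637, 5441 and 6119 TPM at rank 12, and by counts without regard to length it was the highest gene of all. Its lowest library was DD36 replicate a. A siderophore iron transporter (PCON_03923) was at 1311 ± 275 TPM, an uncharacterized transporter (PCON_07974) at 1309 ± 432 TPM, the glucose transporter rco-3 (PCON_03384) at 1173 ± 244 TPM, the amino acid permease GAP1 (PCON_01985) at 763 ± 155 TPM and the phosphate transporter PHO84 (PCON_13624) at 686 ± 167 TPM. For PHO84 replicate a was the lowest library of both time points.

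The fungal cell wall gave 5 members of 117 models (4.27%, beside 2.24% of all models). A GPI-anchored serine-threonine rich protein (PCON_10503) had 1937, 3182, 2612, 1785, 3237 and 3049 TPM, ECM33 (PCON_03860), a GPI-anchored wall protein, 1468, 1588, 1903, 1372, 1683 and 2024 TPM, and a glucan 1,3-beta-glucosidase (PCON_14053) 1301, 1390, 1074, 1495, 1186 and 852 TPM. Replicate a was the lowest of its time point for PCON_10503 and ECM33. The glucanosyltransferase GAS4 (PCON_03782) was at 1044 ± 234 TPM. A beta-glucosidase of the btgE type (PCON_10736, 2269 ± 351 TPM), which the word list placed with plant polysaccharide degradation, was the only member of 79 such models. The cytoskeleton gave 5 of 71, with tropomyosin (PCON_12929, 1790 ± 199 TPM), which coats actin cables, actin (PCON_07264, 1700 ± 158 TPM), alpha-tubulin (PCON_07640, 1356 ± 99.2 TPM), beta-tubulin (PCON_02618, 1193 ± 127 TPM) and cofilin (PCON_13457, 684 ± 80.4 TPM), an actin-severing protein.

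Protection from oxidants was represented by the mitochondrial peroxiredoxin PRX1 (PCON_12131, 3573 ± 551 TPM, rank 18), both copper-zinc superoxide dismutases PCON_05187 (1995 ± 259 TPM) and PCON_08184 (1881 ± 422 TPM), and thioredoxin (PCON_03535, 1075 ± 111 TPM). Of signalling genes, calmodulin (PCON_06869, 1212 ± 157 TPM) and both 14-3-3 proteins (PCON_03299, above, and PCON_13814, 1172 ± 125 TPM) were highest. Amino acid and one-carbon metabolism had 5 members, led by ketol-acid reductoisomerase (PCON_02256, 1104 ± 145 TPM) of branched-chain amino acid synthesis, adenosylhomocysteinase (PCON_13311, 1083 ± 151 TPM) and S-adenosylmethionine synthase (PCON_12064, 934 ± 141 TPM). Nucleoside diphosphate kinase (PCON_10074), which balances nucleoside triphosphates, was at rank 23 with 3263, 2697, 3371, 3343, 3636 and 3480 TPM, lowest in DD24 replicate b. Ribose-phosphate pyrophosphokinase (PCON_10569) was at 797 ± 62.6 TPM.

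Smaller groups supplied the rest of the named classes, each with between 1.2% and 1.89% of its models among the 300, below the 2.24% of all models. The 3 members for proteasome and ubiquitin were an E2 enzyme (PCON_01964, 1208 ± 303 TPM), polyubiquitin (PCON_03455, 913 ± 130 TPM) and PCON_06057 above. Proteases gave a subtilisin-like protease (PCON_08905, 1274 ± 80.5 TPM) and vacuolar protease A (PCON_01850, 815 ± 81.1 TPM), and vesicle traffic the GTPase ARF (PCON_05862, 1441 ± 72.9 TPM) and the autophagy protein ATG8 (PCON_13385, 988 ± 84.7 TPM). RNA processing gave the RNA-binding proteins vip1 (PCON_01020, 1054 ± 268 TPM) and PCON_03078 (696 ± 62.0 TPM) and the 3' end processing model PCON_01652 (1004 ± 177 TPM). Beside the G1 cyclin, the cell cycle words matched CDC48 (PCON_04220, 685 ± 41.7 TPM), a segregase of ubiquitinated proteins, and PCON_02638 (1246 ± 213 TPM), similar to a gene raised in meiosis of fission yeast.

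Among the 25 members with other named products, 2 were enzymes of thiamine synthesis. Thiamine thiazole synthase (PCON_08605), which makes the thiazole part of the vitamin, was the highest of the 25, at rank 11 with 5617, 4198, 4929, 4444, 5309 and 5272 TPM. The NMT1 homolog (PCON_05733), which makes the pyrimidine part, was at rank 67 with 1585, 1566, 1451, 1702, 2209 and 1631 TPM. Neither gene had a library far from the rest except DD36 replicate b in PCON_05733. Tyrosinase (PCON_01775), a copper enzyme of pigment formation, had 2189, 2165, 1440, 1334, 1762 and 1496 TPM. A homolog of the *Neurospora crassa* clock-controlled protein 6 (PCON_12820) had 614, 738, 782, 714, 772 and 892 TPM.

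No function was named for 62 of the 300 (20.7%), for 13 of the 30 highest and for 6 of the 10 highest. Over all models the share was 56.1%, and among the genes with 0 counts 89.5%. Of the 62, 35 were annotated only as a protein of unknown function and 27 as similar to an unnamed protein of another species, 14 of them of the truffle *Tuber melanosporum*. PCON_07193 at rank 2 had 8677, 9795, 7591, 9152, 10542 and 6856 TPM. It has an mRNA of 262 bases, the shortest of the 300, so its level rests on few bases. PCON_11327 at rank 3 had 6866, 11248, 9140, 7826, 8823 and 8686 TPM, and PCON_12673 at rank 4, similar to a protein of *Coprinopsis cinerea*, had 8356, 11707, 9230, 7838, 8446 and 6679 TPM. Both were highest in DD24 replicate b.

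Several unnamed genes were much less even. PCON_06562 at rank 10 had 3319, 8261, 8168, 3886, 4637 and 4732 TPM, with DD24 replicates b and c apart from the rest. PCON_13634 had 7309, 10149, 5095, 6374, 7196 and 4192 TPM and PCON_12250 had 3686, 2235, 1076, 3122, 1797 and 874 TPM. In both of these genes replicate c was the lowest of each time point. PCON_11766 had 4295, 2392, 5723, 4257, 3298 and 7159 TPM, with replicate c the highest of each time point and replicate b the lowest, and PCON_14239 ran from its lowest level in DD36 replicate a to 1529 TPM in DD24 replicate b, with a coefficient of variation of 53.0%. Of the unnamed genes similar to *Tuber melanosporum* proteins, 4 were among the 30 highest. PCON_10869 had 4923, 4941, 4092, 2129, 2933 and 2410.4 TPM, with its lowest library in DD36 replicate a. PCON_03689 lay between 3600 and 3865 TPM in every library but DD36 replicate a, where it had 2767 TPM. In PCON_01206 replicate c was again the lowest of each time point, at 2360 and 2824 TPM, with the other libraries up to 4292 TPM, and PCON_09992 was at 3296 ± 528 TPM (SD, n = 6). PCON_09876 of unknown function, at rank 30, had 4304, 2448, 2828, 3368, 2266 and 2076 TPM, with replicate a the highest of each time point. PCON_07193, PCON_07194 and PCON_07195 are neighbours on scaffold 303 and all were members of unknown function. The pair PCON_01196 and PCON_04143 had the same counts in all 6 libraries and the same mRNA length on different scaffolds, each at 1344 TPM, and the reads listed for them cannot be told apart.

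The members had other features in common that the selection did not use, apart from the mRNA length that entered the levels. Their mRNAs had a median of 1218 bases, against 1188 bases over all models and 535 bases for the genes with 0 counts. A mean of 3.59 exons was annotated for members, 2.98 for all models and 2.36 for genes with 0 counts. No 3' untranslated region was annotated for 4.33% of the members, 20.8% of all models and 31.4% of the genes with 0 counts, and no 5' untranslated region for 13.0%, 24.5% and 29.3%. How the untranslated regions were annotated is not stated, and the listed coding and untranslated lengths did not add up to the mRNA length for 20.7% of the members, 23.4% of all models and 36.3% of the genes with 0 counts, so these shares are uncertain. A predicted protein of under 100 residues was found for 10.7% of the members, 23.1% of all models and 54.1% of the genes with 0 counts.

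Members were often neighbours. At least 1 neighbour on the scaffold was also a member for 44 of the 300 (14.7%), and a member was the neighbour of 4.02% of the other models. The 300 formed 25 adjacent pairs and no run longer than 3 genes, and in 12 pairs both genes were of the same named group, 6 of them ribosomal proteins. In 16 of the 25 pairs (64.0%) the genes lay head to head, with their starts toward each other, an arrangement of 24.5% of all adjacent pairs. Ribosomal examples were S9 with L21-B (PCON_02309 and PCON_02310, 138 bases apart), L36 with S12 (PCON_04535 and PCON_04536, 168 bases) and L5 with S14 (PCON_13726 and PCON_13727, 148 bases). The sets of nitrate genes, histones, ATP-citrate synthase and fatty acid synthase were arranged in the same way in at least 1 of their pairs. S21 and S10-A (PCON_13358 and PCON_13359) overlap by 81 bases at their starts on opposite strands. If strand was not used in the counting, reads there cannot be assigned to either.

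The 2907 genes with 0 counts were mostly short and without a named product. A count of 0 over all libraries allows a level of up to 3 counts, which for these genes stood for a median of 2.73 TPM, between 0.236 TPM for the longest and 15.7 TPM for the shortest mRNA, and covers counting error only. None of the 300 was near that limit. A further 963 genes had 1 count in all libraries together, 504 had 2 and 317 had 3. Of the genes with 0 counts, 2385 were proteins of unknown function, 42.9% of the models so named, and 304 carried a named product, 5.19% of all such models.

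Length and annotation both went with the count of 0. Under 500 bases, 69.8% of the models without a named product and 29.4% of those with one had 0 counts. At 2000 bases or more these shares were 4.45% and 0.912%. In every length class the models without a named product had the larger share. The same classes gave 0.325% and 4.90% of the models under 500 bases as members, and 0.530% and 2.60% of those of 2000 bases or more.

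**Figure D5:**
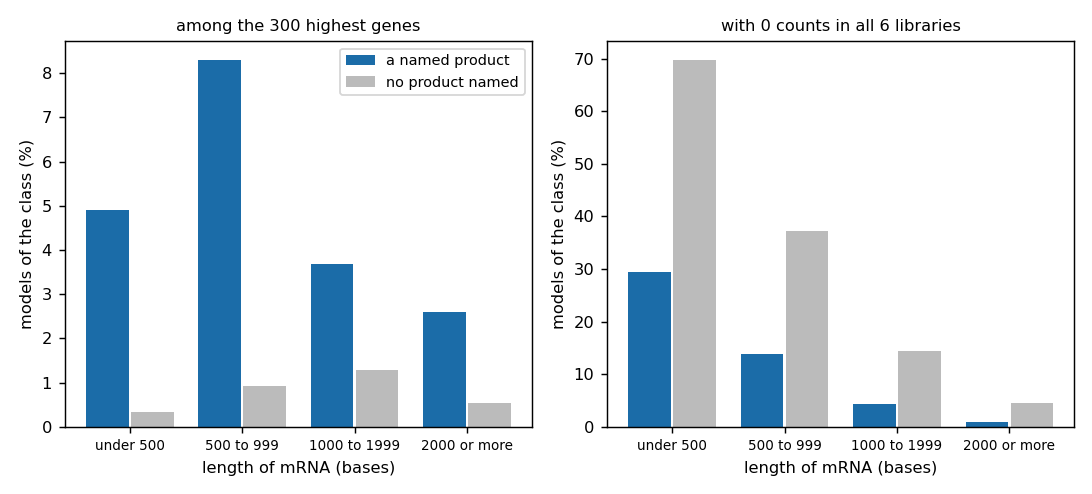
Percent of models among the 300 highest genes (left) and with 0 counts in all 6 libraries (right) by class of mRNA length in bases, for models with a named product (blue) and without one (grey). The share at 0 counts falls from 69.8% to 4.45% for unnamed and from 29.4% to 0.912% for named products as the mRNA gets longer, and the grey bar is the higher one on the right and the lower one on the left in every class.

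By product, 3 classes had a larger share at 0 counts than the 21.8% of all models, the models without a named product and the groups of repeats and retroelements. Repeat and incompatibility proteins, which include ankyrin repeat proteins and the HET-E type proteins that trigger cell death when unlike mycelia fuse, had 75 of 236 models (31.8%) at 0 counts and no member, beside 2.24% of all models. By name, 60 of 185 ankyrin models and 6 of 20 HET-E-1 models were at 0 counts, and the longest of the group were ankyrin models PCON_02118 (mRNA of 2260 bases), PCON_04025 (2179 bases) and PCON_08915 (2133 bases). Such families contain near-identical copies, so reads could be lost or divided in the counting. Retroelements and transposons had 8 of 20 at 0 counts.

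Genes of secondary metabolism, P450s and oxygenases had 10 of 99 models (10.1%) at 0 counts, below the 21.8% of all models and above the 5.19% of models with a named product. None was a member. The longest at 0 were similar to a gramicidin synthase subunit (PCON_03340, mRNA of 3417 bases), to the sterigmatocystin P450 stcF (PCON_07164, 2097 bases) and to P450 67 (PCON_04348, 1769 bases). A count of 0 allows 0.428 TPM for PCON_03340, 0.697 TPM for PCON_07164 and 0.826 TPM for PCON_04348. The class was not silent, with L-ornithine 5-monooxygenase (PCON_02675), the first enzyme of siderophore synthesis, at 548 ± 103 TPM and rank 348.

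Transporters had 15 of 224 models (6.70%) at 0 counts, near the 5.19% of named products, among them 2 of the 3 peptide transporters PTR2 (PCON_09298 and PCON_08718, up to 0.684 and 0.694 TPM) and a transporter similar to AQR1 (PCON_04596). Of lipid genes 12 of 199 (6.03%) were at 0, with 3 of 8 calcium-independent phospholipases A2-gamma (the longest PCON_11662, 3867 bases, and PCON_13735, 2632 bases) and a phosphatidylinositol phosphodiesterase (PCON_13192), and of proteases 10 of 106 (9.43%), with a metacaspase (PCON_10488), a neutral protease (PCON_11462) and a Kyphoscoliosis peptidase-like gene (PCON_06082). Of 5 models named for conidiation, 2 were at 0 counts (40%), a small group to set beside the 5.19% of named products. Both were models of conidiation-specific protein 6, a protein of asexual spores in *N. crassa*, which had 3 models. In the remaining named products the longest were PCON_07537 (5142 bases), a Tristetraprolin-like gene (PCON_10655) and PCON_09128, a model that begins at base 3 of its scaffold. The longest of all were PCON_03368 (6199 bases), PCON_11539 (5586 bases) and PCON_02226 (4242 bases), each of unknown function, for which a count of 0 allows 0.236, 0.262 and 0.345 TPM. The lowest shares at 0 counts were 0 of 87 ribosomal proteins, 0 of 80 assembly factors, 0 of 9 histones, 2 of 227 models of RNA processing and 3 of 326 of transcription and chromatin, while mitochondrial carriers and import had 7 of 66 (10.6%), redox defence 4 of 51 (7.84%) and the fungal cell wall 9 of 117 (7.69%). The glycolytic model at 0, a pyruvate kinase (PCON_04429), lies on the scaffold of the expressed pyruvate kinase PCON_04428.

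Genes with 0 counts were also neighbours of each other. Of the 2907, 1461 (50.3%) had a neighbour with 0 counts, against 32.8% of the models with counts, and the longest run held 7 genes. Their 869 adjacent pairs lay on the same strand in 62.9% of cases and head to head in 18.8%, compared with 51.5% and 24.5% of all pairs. On 32 scaffolds with 40 models in all, every model had 0 counts.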

How the data were processed

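Total RNA of vegetative mycelium was sequenced in 6 Illumina TruSeq libraries. The authors mapped trimmed reads to their reference genome of the species and deposited whole read counts per gene model, together with the mRNA length, position and predicted product of each model. Among the tools the submitters listed in their processing notes are CASAVA 1.8.2 and DESeq, and the read counter and any use of strand are not stated. Columns with the authors' expression ratios, normalised means and p-values for the time points were not used. The 6 count columns were matched to samples by title, and 0 were left without a sample.

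Counts were divided by mRNA length and scaled to 1000000 per library with Python 3.11.15, pandas 2.3.3 and numpy 2.4.6, and no test between groups was run, since members were chosen on their level. Single libraries far from the others were marked by Dixon's ratio. TMM factors came from edgeR 4.0.16. Products were sorted into 30 groups by word lists, a gene entering the first group that matched, and the rest were pooled. The members and lists were chosen with earlier results of these data known, and the lists were adjusted after matches had been seen. Genes named were the 30 highest, the 3 highest of each group, 5 on either side of rank 300, the 5 most and 5 least variable members, and, at 0 counts, the 3 longest of groups with at least 10. Members and markers named beyond these were chosen after their values were seen. Coordinates are those of the deposited table, 1-based on the authors' scaffolds. The code for the ranking was run on data simulated from the observed mean levels, which checks the computation and not the ranking itself. Alternatives covered length, scaling, averaging, model filters, the number of genes and each library left out.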

Additional observations from a re-analysis of the deposited data

Results flagged for a closer look

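In groups of 6 libraries, a highest or lowest value was noted when its gap to the next, as a share of the whole range, exceeded Dixon's limit at 95%. Of 136 values examined, 5 passed, and chance alone flags about 1 in 20 of independent values, a share that was not exceeded. The libraries span both time points and share replicate letters, so they are not independent. A pair of high libraries can also hide each other, so this comparison gives no verdict on chance. The values are the levels on which the genes were selected, and the flags are a description of single libraries. DD36 replicate a held the lowest share of the summed level in the 300 highest genes, 43.6%, while the other libraries lay between 45.7% and 46.6%. The hypothetical protein PCON_03689 was also lowest there, at 2767 TPM against 3600 to 3865 TPM elsewhere. The ubiquitin and WLM domain protein PCON_06057 was at 1536 TPM in DD24 replicate c and between 452 and 833 TPM in the other libraries. The RNA-binding protein PCON_03078 was at 815 TPM in DD24 replicate a, with the others between 643 and 695 TPM. The CDC48 homolog PCON_04220 was at 606 TPM in DD24 replicate b, below the 686 to 726 TPM of the others.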

How the results depend on the processing

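Of 92 values computed under alternatives, 83 stayed within 1 SD over the libraries (share of the level) or within 1.5 times (counts). The limit for counts is wide, and counts from lists of 200 and 400 genes were held against those of 300. The share under TMM scaling could not move, since it is taken within each library. The 83 are therefore no measure of stability. Without division by mRNA length, the 300 highest genes held 42.2% of the counts and included 18 cytosolic ribosomal proteins in place of 66, and 212 of the 300 remained. The 88 genes that left had a median mRNA of 752 bases and the 88 that entered one of 3456 bases. With the 4 models kept, the 300 highest held 58.1% of the level. The 200 highest genes held 38.1% with 36 ribosomal proteins and 14 genes of respiration, and the 400 highest 51.3%. Allowing up to 3 counts over the libraries gave 4691 genes in place of 2907, of which 4147 (88.4%) had no named product. Leaving out each library in turn, the share was 45.6% to 46.2%, and between 294 and 297 of the 300 remained. Genes with 0 counts then numbered 3024 to 3160. No paired analysis was possible because no result comes from a test between the time points, which were not compared. Depth is a limit on the list of genes at 0 counts, since the counts are few per library and a short mRNA can be missed at a level that a long one would show.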
